A study of Mus musculus with 17 samples.

Results

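Here 10 genes of the cortical cytoskeleton and its calcium-binding partners were followed through the response of hematopoietic stem and progenitor cells (HSPC) to lipopolysaccharide (LPS) with and without blockade of the interleukin-10 receptor (IL-10R). They were picked by gene symbol, and all 10 were found among the 35321 rows of the count table and among the 14920 genes tested. Ahnak and Gsn were chosen for their measured values in these libraries (low at 24 h of LPS, back up at 72 h of LPS, low at 72 h with the antibody), so their levels in those comparisons are given as a description without a test. The 8 linked genes Vim, Lgals1, Anxa1, Anxa2, S100a4, S100a6, S100a10 and Crip1 were chosen for their function. Earlier results of these data were known at that point, so the choice was not independent of the data. The question was whether they followed Ahnak and Gsn.

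HSPC are the immature bone marrow cells from which blood forms. They were sorted from wild-type mice of the inbred strain C57BL/6J, and polyadenylated RNA was sequenced in 17 libraries. The 5 groups were phosphate-buffered saline (PBS; n = 5, labelled day 0), LPS for 24 h (n = 3), LPS with anti-IL-10R antibody for 24 h (n = 3), LPS for 72 h (n = 3) and LPS with that antibody for 72 h (n = 3). Agents were given into the peritoneum, at amounts written as 5 of LPS and 100 of antibody, in micrograms in one place of the deposited text and in milligrams in another. Age and sex were not given in the labels, no group received the antibody without LPS, and it was not stated whether a library held 1 mouse or a pool, so p-values measure the spread between these libraries. Total counts ran from 10516722 to 16006001 per library, and scaling factors from 0.947 to 1.12 apart from 0.799 for LPS 24 h library 1. All 12 listed HSPC markers (among them Kit, Cd34 and Flt3) were detected in every library. Levels below are counts scaled to library size (CPM, with library totals corrected by TMM factors). Fold changes are log2 values with a standard error (SE) from edgeR's quasi-likelihood test, and a gene was called when its Benjamini-Hochberg adjusted p over all tested genes was below 0.05.

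The cell cortex is the actin-rich layer under the plasma membrane. Annexins bind acidic phospholipids when calcium rises, and most S100 proteins are small calcium-binding dimers that dock on annexins and other targets. S100a10 pairs with Anxa2 in a tetramer that anchors the giant scaffold protein Ahnak at the membrane. Several of these genes are known to be higher in effector and memory lymphocytes and in mature myeloid cells than in resting cells.

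RefSeq promoter sequences (GRCm38.p6, 250 bases before to 50 after the annotated start) were found for 8 of the 10 genes, with 3 starts for Gsn. The 4 below belong to the scaffold itself, to genes called higher between 24 h and 72 h of LPS (Crip1 and S100a4) and to Anxa2, which was not; capitals mark matches on either strand to TATAAA or to the AP-1 motif TGANTCA, which do not overlap here.
Ahnak, chr19:8989034-8989333, plus strand: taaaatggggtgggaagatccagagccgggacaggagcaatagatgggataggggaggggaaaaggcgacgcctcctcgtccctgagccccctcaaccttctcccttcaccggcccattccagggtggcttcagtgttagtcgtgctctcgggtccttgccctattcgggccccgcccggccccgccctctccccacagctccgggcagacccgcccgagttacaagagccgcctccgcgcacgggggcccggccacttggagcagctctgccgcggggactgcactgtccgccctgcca
Crip1, chr12:113151762-113152061, plus strand: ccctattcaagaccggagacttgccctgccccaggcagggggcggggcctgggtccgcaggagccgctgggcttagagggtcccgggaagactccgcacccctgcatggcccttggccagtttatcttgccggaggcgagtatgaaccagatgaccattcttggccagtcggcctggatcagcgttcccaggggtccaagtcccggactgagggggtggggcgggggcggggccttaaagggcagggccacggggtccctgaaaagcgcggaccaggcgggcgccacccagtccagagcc
S100a4, chr3:90603520-90603819, plus strand: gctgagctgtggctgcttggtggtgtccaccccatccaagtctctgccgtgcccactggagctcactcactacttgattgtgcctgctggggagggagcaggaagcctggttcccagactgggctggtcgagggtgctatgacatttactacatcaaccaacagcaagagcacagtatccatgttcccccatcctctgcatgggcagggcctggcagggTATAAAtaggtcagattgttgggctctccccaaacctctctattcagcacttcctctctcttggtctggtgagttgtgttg
Anxa2, chr9:69453433-69453732, plus strand: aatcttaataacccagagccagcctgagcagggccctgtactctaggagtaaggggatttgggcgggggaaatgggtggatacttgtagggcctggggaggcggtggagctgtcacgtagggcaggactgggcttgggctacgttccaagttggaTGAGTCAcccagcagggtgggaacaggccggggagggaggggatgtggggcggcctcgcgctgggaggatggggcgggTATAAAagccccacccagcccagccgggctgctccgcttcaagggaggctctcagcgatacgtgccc
TATAAA was found in the promoters of S100a4, Anxa2, Vim and Anxa1 (4 of 10 member promoters, against 13.6% of 32817 promoters of the same length) and not in those of Ahnak, Crip1, Gsn or S100a6. The AP-1 motif was found in Anxa2 alone (7.81% of all promoters). The STAT motif TTCNNNGAA (8.29% of all promoters) and the CArG box bound by serum response factor (1.63%) were found in none of the 10. A match is a description of the letters in this window.

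Ahnak (chromosome 19: 8989284-9076914, plus strand, GENCODE M21 on GRCm38) encodes that scaffold. Its level was 81.0, 175, 120.3, 105 and 97.8 CPM in the 5 PBS libraries and 11.2, 49.3 and 16.7 CPM at 24 h of LPS. At 72 h of LPS it was 152, 131 and 321 CPM, and with the antibody it was 45.3, 32.6 and 60.3 CPM at 24 h and 39.5, 45.9 and 82.1 CPM at 72 h. Every 24 h library, with or without antibody, lay below every PBS library, and every 72 h antibody library lay below every 72 h LPS library. The group means ordered as LPS 72 h (201 ± 104 CPM, SD, n = 3), PBS (116 ± 35.8, SD, n = 5), LPS with antibody 72 h (55.8 ± 23.0, SD, n = 3), LPS with antibody 24 h (46.1 ± 13.9, SD, n = 3) and LPS 24 h (25.7 ± 20.6, SD, n = 3). The first and the second of these overlapped, the last 3 overlapped each other, and PBS touched antibody 72 h (81.0 against 82.1 CPM). In RNA from a sorted population, fewer cells of a type and less RNA per cell cannot be told apart. Ahnak changed by -2.16 (SE 0.471) from PBS to LPS 24 h, by 2.96 (SE 0.514) from LPS 24 h to LPS 72 h and by -1.85 (SE 0.491) with the antibody at 72 h. Without LPS 24 h library 2, the highest of its group, the first and the second of these changes were -3.04 and 3.84.

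Gsn (chromosome 2: 35256380-35307892, plus strand) encodes gelsolin, which severs and caps actin filaments when calcium rises. It was at 43.7, 65.5, 45.0, 41.4 and 45.9 CPM with PBS, 15.7, 22.3 and 14.7 CPM at 24 h of LPS, and 90.0, 65.7 and 71.1 CPM at 72 h of LPS. With the antibody it was at 29.9, 19.7 and 22.8 CPM at 24 h and 15.7, 23.8 and 25.1 CPM at 72 h. The 72 h LPS libraries lay above all others, with PBS library 2 (65.5 CPM) just under the lowest of them, and the other 3 treated groups lay below every PBS library and overlapped each other. The difference made by the antibody at 24 h is also given without a test, since its LPS libraries are those whose low values chose these genes. The antibody libraries differed from LPS alone by 0.83 (SE 0.487) for Ahnak and by 0.46 (SE 0.233) for Gsn, and the choice of genes low in those LPS libraries favours such a rise. In that comparison edgeR called 0 of 14920 genes, and 273 had an unadjusted p under 0.05.

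**Figure D1:**
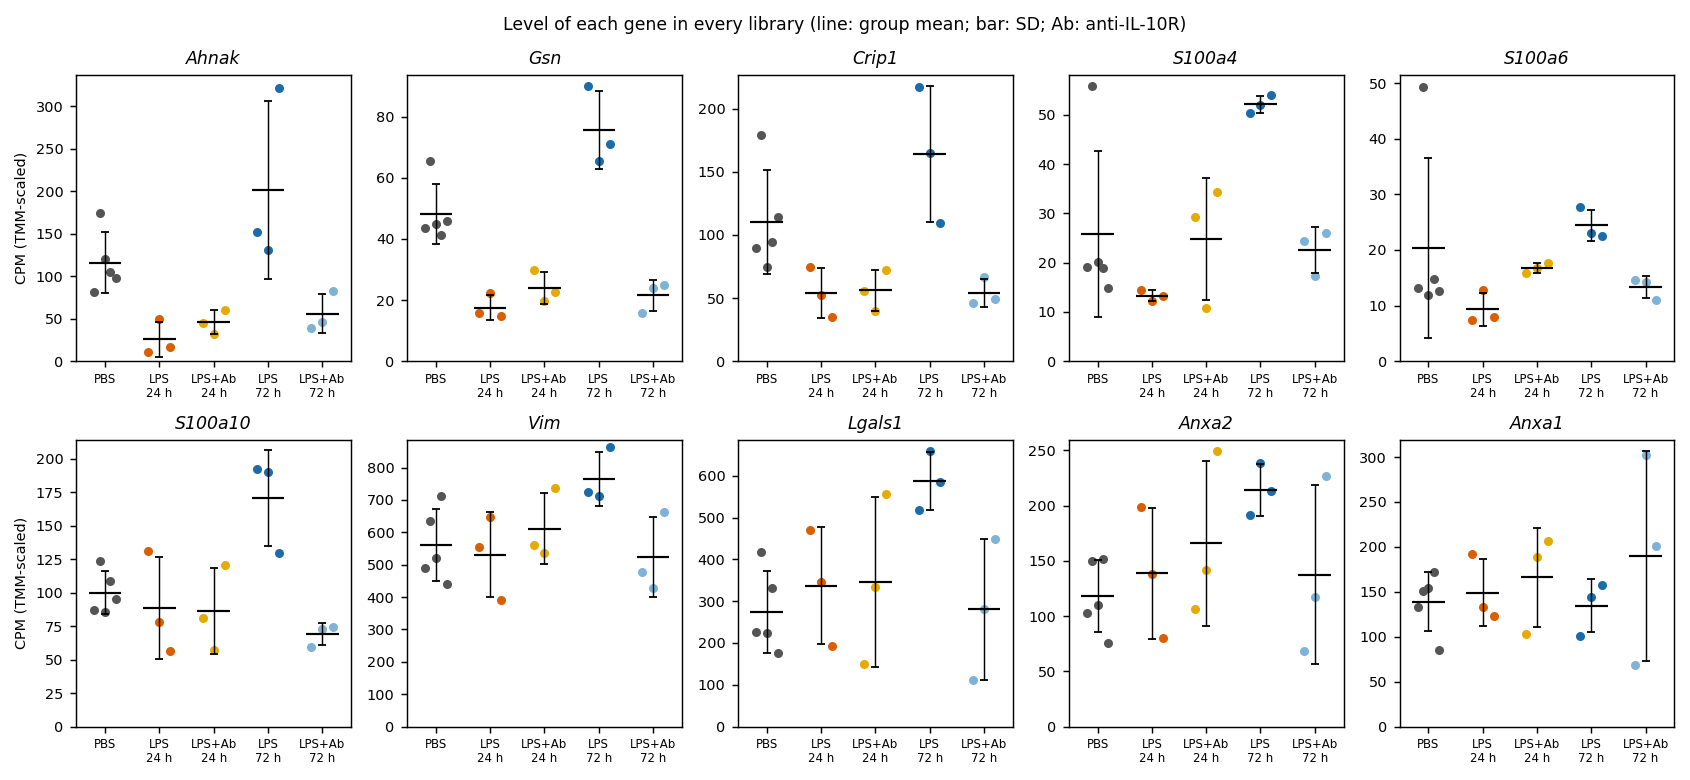
Level of each of the 10 genes in each of the 17 libraries, in CPM on axes that start at 0; points are libraries, the line is the group mean and the bar 1 SD (n = 5 for PBS, n = 3 otherwise). Crip1 and the S100 genes have their highest group mean at 72 h of LPS, as do Vim, Lgals1 and Anxa2, whereas Anxa1 does not, and Lgals1, Anxa2 and Anxa1 spread widely inside the antibody groups.

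Of the 8 linked genes, 7 had their highest group mean at 72 h of LPS, as did 24.7% of all tested genes; the exception was Anxa1. The low point was shared less: 2 of 8 had their lowest mean at 24 h of LPS (28.3% of tested genes), 2 with PBS, 3 with antibody at 72 h and 1 at 72 h of LPS.

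Crip1 (chromosome 12: 113146316-113153879, plus strand), a small zinc-binding LIM-domain protein, was called in the comparisons over which Ahnak and Gsn were chosen. It stood at 89.4, 179, 74.6, 94.7 and 114 CPM with PBS and at 74.4, 52.8 and 35.1 CPM at 24 h of LPS. At 72 h of LPS it stood at 217, 165 and 109.8 CPM. The antibody libraries held 56.0, 40.1 and 72.2 CPM at 24 h and 46.1, 66.4 and 49.4 CPM at 72 h. Every library of LPS at 24 h and of both antibody groups thus lay below every PBS library and below every 72 h LPS library, although PBS library 3 (74.6 CPM) and LPS 24 h library 1 (74.4 CPM) nearly touched. Crip1 fell by 1.03 (SE 0.316, edgeR adjusted p = 0.0185) from PBS to LPS 24 h, rose by 1.60 (SE 0.347, edgeR adjusted p = 0.00319) from LPS 24 h to 72 h and was lower by antibody at 72 h, with a change of -1.61 (SE 0.348, edgeR adjusted p = 0.00798).

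The 3 S100 genes followed were all on chromosome 3. S100a4 (90603771-90606045) and S100a6 (90612882-90624181), both on the plus strand, lie 6.84 kb apart. S100a10 (93555080-93564643, plus strand) lies 2930.9 kb further on. S100a4, known as fibroblast-specific protein and a partner of non-muscle myosin, was at 19.1, 55.8, 20.1, 19.0 and 14.9 CPM with PBS and at 14.5, 12.2 and 13.3 CPM at 24 h of LPS. At 72 h of LPS it was at 50.4, 51.9 and 54.0 CPM, and with the antibody it was at 29.3, 10.7 and 34.3 CPM at 24 h and 24.5, 17.2 and 26.0 CPM at 72 h. The 72 h LPS libraries were close together and above all others except PBS library 2. S100a4 rose by 1.97 (SE 0.452, edgeR adjusted p = 0.00454) from 24 h to 72 h of LPS. Its change from PBS to LPS 24 h (-0.95, SE 0.407, edgeR adjusted p = 0.0767) and the difference made by the antibody at 72 h (-1.21, SE 0.440, edgeR adjusted p = 0.0744) were not called, although the libraries did not overlap in either. The annotated gene Gm42674 overlaps S100a4 on the same strand, and its 5312 counts over all libraries against 6141 for S100a4 ran in parallel with it (45.2 ± 2.33 CPM, SD, n = 3, at 72 h of LPS against 11.4 ± 1.27 CPM, SD, n = 3, at 24 h). How the reads were divided between these genes is not given in the sources used here, so the S100a4 level is uncertain.

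S100a6, or calcyclin, was the lowest of the 10 in CPM. It was at 13.1, 49.3, 11.9, 14.8 and 12.6 CPM with PBS, 7.32, 12.8 and 7.91 CPM at 24 h of LPS and 27.7, 23.1 and 22.5 CPM at 72 h of LPS. The antibody groups held 15.8, 16.7 and 17.7 CPM at 24 h and 14.6, 14.2 and 11.03 CPM at 72 h, below each 72 h LPS library. It fell by 1.12 (SE 0.411, edgeR adjusted p = 0.0429) from PBS to LPS 24 h and rose by 1.38 (SE 0.449, edgeR adjusted p = 0.0289) from 24 h to 72 h of LPS. The fall rested on PBS library 2: without it the change was -0.49 (edgeR adjusted p = 0.0622). It was also not called without LPS 24 h library 1 (-0.96, edgeR adjusted p = 0.167) or library 3 (edgeR adjusted p = 0.132). In PBS library 2 the summed level of 14 monocyte-macrophage markers was 2913 CPM against 637 to 1212 CPM in the other PBS libraries. Sums of plasma cell markers (1419 against 449 to 924 CPM) and dendritic markers (1224 against 842 to 987 CPM) were also highest there. So was that of B-lymphoid markers (166 against 126 to 155 CPM). The part of these cells in the S100 and Gsn levels of that library was not tested.

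S100a10 encodes the partner of Anxa2. It was at 86.9, 124, 85.4, 108 and 95.5 CPM with PBS and at 131, 78.3 and 56.5 CPM at 24 h of LPS, a change of -0.18 (SE 0.258, approximate 95% interval -0.74 to 0.39, edgeR adjusted p = 0.617). LPS 24 h library 1, which had the lowest scaling factor, was above every PBS library and the other two were below, and without library 1 the change was -0.56 (edgeR adjusted p = 0.128). Voom with quality weights called the change lower (-0.55, adjusted p = 0.0282). At 72 h of LPS it was at 192, 190.5 and 129.6 CPM, and with the antibody at 80.8, 57.3 and 120.5 CPM at 24 h and 59.5, 73.0 and 74.8 CPM at 72 h. All 3 antibody libraries at 72 h were below every library of LPS at 72 h and of PBS. S100a10 rose by 0.95 (SE 0.289, edgeR adjusted p = 0.0216) from 24 h to 72 h of LPS and was lower with antibody at 72 h, with a change of -1.31 (SE 0.292, edgeR adjusted p = 0.00947).

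Vim (chromosome 2: 13573927-13582826, plus strand) encodes vimentin, the main intermediate filament protein of blood cells, and was the highest of the 10 in CPM. It was at 490.1, 635, 521, 712 and 442 CPM with PBS, 554, 649 and 391 CPM at 24 h of LPS and 723, 712 and 862 CPM at 72 h of LPS. With the antibody it was at 559, 538 and 737 CPM at 24 h and 478, 429 and 664 CPM at 72 h. The 72 h LPS libraries were above those of PBS (the nearest by less than 1 CPM) and above those with antibody at 72 h, but the changes were small. They were 0.53 (SE 0.222, edgeR adjusted p = 0.0823) from 24 h to 72 h of LPS and -0.55 (SE 0.222, edgeR adjusted p = 0.102) with antibody at 72 h, and neither was called.

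Lgals1 (chromosome 15: 78926725-78930465, plus strand), which encodes the glycan-binding lectin galectin-1, and Anxa2 (chromosome 9: 69453620-69491795, plus strand) varied together across libraries more closely than either did with Ahnak. Lgals1 was at 227, 417, 223, 332 and 176 CPM with PBS, 471, 347 and 192 CPM at 24 h of LPS and 519, 659 and 586 CPM at 72 h of LPS. In the antibody groups it was at 150.4, 334 and 556 CPM at 24 h and 111, 280.4 and 449 CPM at 72 h. All 72 h LPS libraries were above those of PBS, of LPS at 24 h and of antibody at 72 h, yet the antibody difference at 72 h (-1.07, SE 0.493, edgeR adjusted p = 0.146) was not called.

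Anxa2 was at 103, 150.0, 109.7, 152 and 75.5 CPM with PBS and at 199, 138 and 79.9 CPM at 24 h of LPS. At 72 h of LPS it was at 191, 239 and 214 CPM, and with the antibody at 106, 141 and 249.9 CPM at 24 h and 68.5, 117 and 227 CPM at 72 h. The antibody groups together thus spanned the whole range of the series. The antibody difference at 72 h (-0.64, SE 0.414, approximate 95% interval -1.54 to 0.26, edgeR adjusted p = 0.297) was not called. As a description over the 17 libraries, which share their groups, log2 CPM of Lgals1 and Anxa2 had a Pearson r of 0.949 and a Spearman rho of 0.936, and r was 0.968 without the 2 libraries farthest from the Lgals1 median and 0.956 on deviations from the group means. In both antibody groups library 1 was lowest and library 3 highest for these 2 genes. Summed erythroid markers ran the other way in those libraries (2413, 593 and 126 CPM at 24 h and 1347, 315 and 68.3 CPM at 72 h for libraries 1, 2 and 3), and summed neutrophil markers the same way (4084, 9730 and 10879 CPM, and 3271, 9060 and 11075 CPM). The part of cell composition in these levels was not tested.

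Anxa1 (chromosome 19: 20373428-20390944, minus strand), a phospholipid-binding mediator known for its anti-inflammatory actions and its induction by glucocorticoids, did not follow Ahnak. It was at 133, 150.4, 154, 172 and 85.3 CPM with PBS, 192, 133 and 123 CPM at 24 h of LPS and 101, 145 and 158 CPM at 72 h of LPS. With the antibody it was at 103, 188 and 207 CPM at 24 h and 68.5, 302 and 201 CPM at 72 h. The groups overlapped in all 8 comparisons of a pair of groups, and Anxa1 was called in none of the 9. The antibody difference at 72 h was 0.50 (SE 0.405, approximate 95% interval -0.38 to 1.38, edgeR adjusted p = 0.413).

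**Figure D2:**
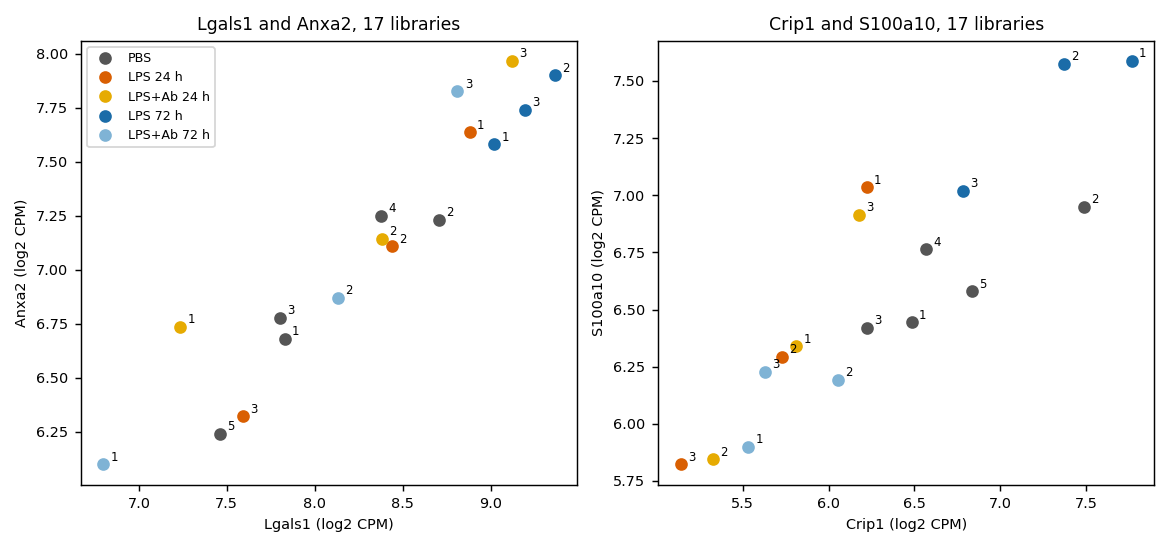
Log2 CPM of Anxa2 against Lgals1 (left) and of S100a10 against Crip1 (right) in 17 libraries, coloured by group and numbered by library; both axes are logarithmic levels. The Lgals1 and Anxa2 levels lie along a line (r 0.949) with antibody libraries 1 at the low end and libraries 3 at the high end, and the Crip1 and S100a10 levels (r 0.886) have the 72 h LPS libraries at upper right.

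At 24 h of LPS the share of linked genes called was near that of all genes. Of the 8, 2 were lower (Crip1 and S100a6) and 0 higher, where 18.5% of tested genes were called lower and 19.1% higher, and the median log2 change was -0.13 for the 8 and -0.03 for all genes. A fit blocked on replicate number called Crip1 and S100a6 too. Without LPS 24 h library 3 neither was called (Crip1 -0.79, edgeR adjusted p = 0.0905), and Crip1 was not called without LPS 24 h library 2 (-1.01, edgeR adjusted p = 0.0509). Between 24 h and 72 h of LPS, 4 of 8 were higher (Crip1, S100a4, S100a6 and S100a10) and 0 lower, where 14.7% of tested genes were called higher and 16.4% lower. The median change was 0.88 for the 8 and 0.02 for all genes. In 5 of 8 the libraries did not overlap, against 22.4% of tested genes in that direction. Leaving out LPS 24 h library 3, LPS 72 h library 1 or LPS 72 h library 2 each reduced the 4 to 2, with Crip1 and S100a4 kept and S100a6 and S100a10 lost. S100a6 was also lost without LPS 24 h library 1 (edgeR adjusted p = 0.0959) or LPS 72 h library 3 (edgeR adjusted p = 0.0517), and S100a10 without LPS 24 h library 2 (0.87, edgeR adjusted p = 0.0663).

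The antibody comparison at 72 h gave 2 of 8 called lower (Crip1 and S100a10) and 0 higher, where 6.48% of tested genes were called lower and 8.64% higher. The median change was -0.97 for the 8 against 0.01 for all genes, and 7 of 8 were below 0. In 6 of 8 all 3 antibody libraries lay below all 3 LPS libraries, against 16.1% of tested genes. Crip1 and S100a10 were called in each of the 14 alternatives run (edgeR, DESeq2 or voom adjusted p up to 0.0476 and 0.0463). With limma's voom and sample quality weights, 7 of 8 were called: 6 lower, among them S100a4 (-1.42, adjusted p = 0.0084), Vim (-0.64, adjusted p = 0.0219) and Lgals1 (-1.15, adjusted p = 0.0253), and Anxa1 higher (0.87, adjusted p = 0.0449). The share of all tested genes called by voom is not given here, and the shares above are those of edgeR.

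**Figure D3:**
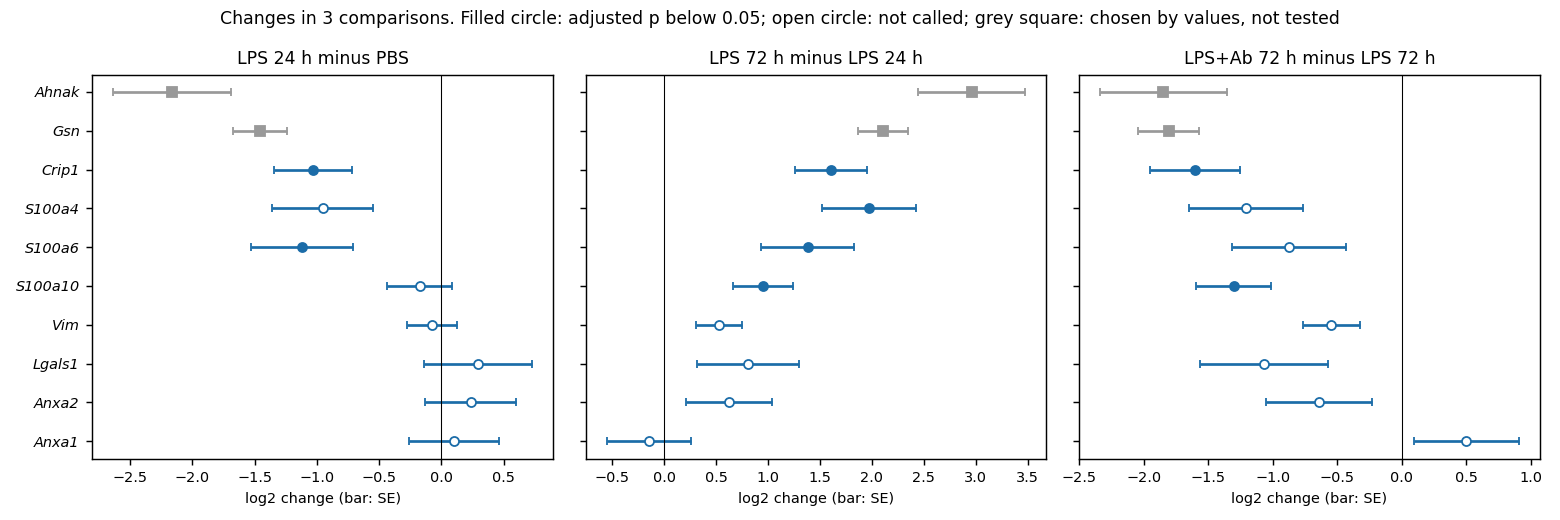
Log2 change and SE (bars) of the 10 genes from PBS to LPS 24 h, from LPS 24 h to LPS 72 h and from LPS 72 h to LPS with antibody 72 h; the last 2 share the 72 h LPS libraries, and the first 2 the 24 h LPS libraries. Filled circles passed the test, open circles did not, and grey squares mark Ahnak and Gsn, which were not tested; Crip1 is filled in all 3 panels and Anxa1 in none.

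At 24 h the antibody difference was called in 0 of the 8 linked genes by edgeR, DESeq2 or voom, and edgeR gave 0 of them an unadjusted p under 0.05. The largest differences were those of S100a4 (0.90, SE 0.444, approximate 95% interval -0.07 to 1.87) and S100a6 (0.84, SE 0.446, -0.13 to 1.81), both towards higher levels with antibody, with an edgeR adjusted p of 1 for each. Whether the antibody difference changed between 24 h and 72 h was tested directly. None of the 8 was called, against 2.32% of tested genes called lower and 4.03% higher. An unadjusted p below 0.05 in edgeR's test was found for 5 of the 8 and for 3616 of the 14920 tested genes. The changes were -1.66 for Crip1 (SE 0.485, edgeR adjusted p = 0.053), -2.10 for S100a4 (SE 0.625, edgeR adjusted p = 0.0557) and -1.27 for S100a10 (SE 0.408, edgeR adjusted p = 0.0735). DESeq2's Wald test called 4 of 8, these 3 and S100a6 (-1.73, adjusted p = 0.0488), and its share of all tested genes called is not given here. Between 24 h and 72 h with antibody, 0 of 8 were called by edgeR (0 of all tested genes, and 635 at an unadjusted p below 0.05), and the median change of the 8 was -0.25.

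Against PBS, the 72 h groups parted. With LPS alone at 72 h, 7 of 8 lay above PBS, with a median of 0.67 against -0.03 for all genes. None of the 8 was called by edgeR, where only 0.0201% of all tested genes were called. An unadjusted p below 0.05 in edgeR's test was found for 5 of the 8 and for 1702 of the 14920 tested genes. DESeq2 also called 0 of 8, and voom with quality weights called 5 higher, without a share of all tested genes called by voom to set beside it. In 4 of 8 the libraries lay above all those of PBS, against 4.96% of tested genes. The values were 1.10 for Lgals1 (SE 0.427, edgeR adjusted p = 0.368) and 0.77 for S100a10 (SE 0.252, edgeR adjusted p = 0.28). With antibody, Crip1 was the 1 gene of 8 called lower, at 24 h (-0.98, SE 0.315, edgeR adjusted p = 0.0355, against 12.5% of tested genes called lower and 11.7% higher) and at 72 h (-1.03, SE 0.316, edgeR adjusted p = 0.0429, against 6.43% lower and 6.81% higher). Without PBS library 2 it was not called at either time (-0.73, edgeR adjusted p = 0.0824, and -0.79, edgeR adjusted p = 0.0935), nor without PBS library 5 (adjusted p = 0.0652 and 0.0808). It was also lost at 24 h without antibody library 1 or 2 (edgeR adjusted p = 0.0791 and 0.158) and at 72 h without antibody library 1 or 3 (edgeR adjusted p = 0.135 and 0.127). In the fit of libraries 1 to 3 blocked on replicate number Crip1 at 72 h was not called (-0.98, edgeR adjusted p = 0.119), nor was it without the block (edgeR adjusted p = 0.121), and both fits called 0 of all tested genes.

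Per kilobase of annotated exon the order of levels differed from that in CPM. With PBS, Lgals1 was highest at 304 CPM per kb of its 0.9 kb, then Vim at 118, S100a10 at 82.5, Crip1 at 48.4, Anxa1 at 47.7, S100a4 at 44.1 and Anxa2 at 31.6 CPM per kb. Gsn (15.3), S100a6 (14.9) and Ahnak (5.8 CPM per kb of 19.94 kb) were lowest. These levels assume that reads cover all annotated exons alike.

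Over the 17 libraries, the genes whose log2 CPM was most like that of Ahnak, among 7459 other genes at or above the median level, were Akna (Pearson r 0.973), Mrtfa (0.966), Acox3 (0.958), Tpm4 (0.950) and Rps6ka5 (0.948). Mrtfa encodes an actin-sensing coactivator of serum response factor, and Tpm4 encodes a tropomyosin that coats actin filaments. Mrtfa was at 76.1 ± 3.41 CPM (SD, n = 5) with PBS, 42.9 ± 11.9 (SD, n = 3) at 24 h and 82.8 ± 13.6 (SD, n = 3) at 72 h of LPS, and 52.2 ± 6.90 (SD, n = 3) with antibody at 72 h. Gsn was in place 80 (r 0.898), but it was chosen for the same pattern as Ahnak in these libraries, so its likeness was built in. S100a4 was in place 727 (0.707) and Crip1 in place 738 (0.705). S100a10 (1373, 0.521), Vim (1116, 0.596), Lgals1 (1933, 0.349), Anxa2 (2093, 0.300) and Anxa1 (3209, -0.079) were further down, and S100a6 (r 0.71) was below the median level and not placed. On deviations from the group means, r with Ahnak was 0.63 for Vim, 0.60 for Gsn, 0.43 for S100a6, 0.39 for S100a4, 0.32 for Anxa2 and Lgals1, 0.13 for Anxa1, 0.01 for Crip1 and -0.02 for S100a10.

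**Figure D4:**
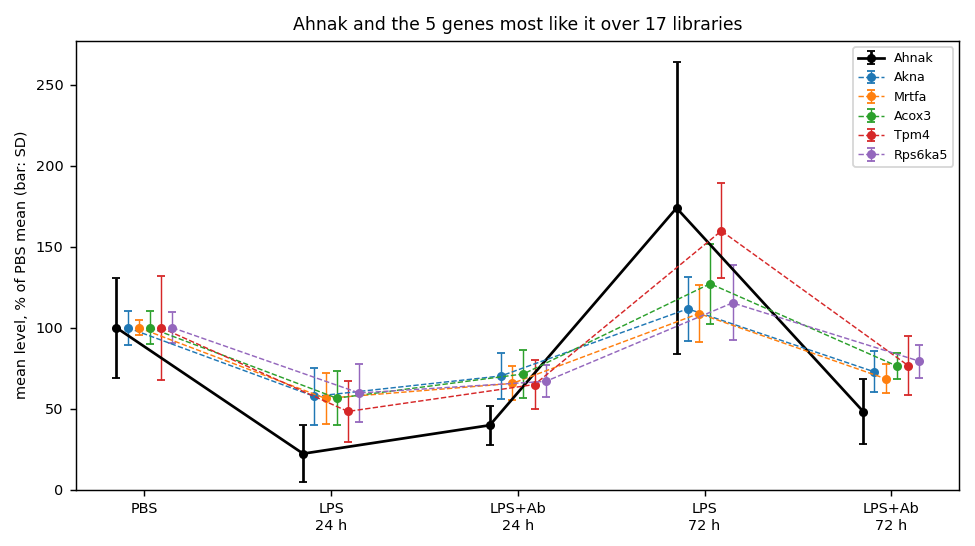
Group means of Ahnak and of the 5 genes most like it, as a percentage of each gene's own PBS mean on an axis that starts at 0; bars are 1 SD (n = 5 for PBS, n = 3 otherwise) and lines join groups only to guide the eye. Ahnak falls to 22.2% of its PBS mean at 24 h of LPS, deeper than the other 5 genes, and stands at 174% at 72 h of LPS and 48.2% at 72 h with antibody. Ahnak was chosen for its values in these groups, and the other 5 genes for their likeness to it.

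Beyond the 10 genes, 124 other genes of the cytoskeleton, annexin, S100, gelsolin, galectin and LIM families were listed, of which 100 were tested. With antibody at 72 h against LPS at 72 h, 11 were lower and 7 higher (6.48% and 8.64% of all tested genes), and the median change was -0.03 against 0.01 for all genes. Among the lower genes were Capg, a gelsolin relative that caps actin filaments (-1.08, SE 0.217, edgeR adjusted p = 0.00566), and the leukocyte actin-binding gene Lsp1 (-1.48, SE 0.237, edgeR adjusted p = 0.00184). Anxa6 (-1.07, SE 0.24, edgeR adjusted p = 0.00967), Anxa5 (-0.80, SE 0.225), S100a13 (-1.24, SE 0.326) and the integrin subunit Itgb7 (-1.63, SE 0.233) were lower too. Twf1, which encodes the actin-monomer-binding protein twinfilin (0.91, SE 0.114, edgeR adjusted p = 0.00122), and the actin crosslinker Actn4 (0.47, SE 0.126, edgeR adjusted p = 0.0222) were higher.

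From 24 h to 72 h of LPS, 17 of the 100 were higher and 11 lower, near or below the 14.7% and 16.4% of all tested genes. Capg rose by 1.29 (SE 0.218) and Anxa6 by 1.11 (SE 0.24), and Twf1 fell by 0.67 (SE 0.114). From PBS to LPS 24 h, 17 were higher and 22 lower, near the 19.1% and 18.5% of all tested genes. In the actin list 12 of 39 were higher and 4 lower (median 0.14), and in the list of membrane linkers and adhesion genes 1 of 25 was higher and 8 lower (median -0.24), so most genes of both lists were not called. Zyx, a focal adhesion gene, fell by 1.03 (SE 0.177), and Tagln2, an actin-binding gene, rose by 0.72 (SE 0.139). The change of the antibody difference between the 2 times was called for 6 of the 100, of which 5 were lower (2.32% of all tested genes were called lower and 4.03% higher): Lsp1 (-2.07, SE 0.332), Itgb7 (-1.96, SE 0.325), Capg (-1.40, SE 0.305), Tpm4 (-1.48, SE 0.419) and Anxa6 (-1.19, SE 0.337).

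Summed marker levels of several cell types differed between the groups too. The 12 HSPC markers summed to 1804 to 2641 CPM with PBS, 1188 to 1329 CPM at 24 h of LPS, 1277 to 1601 CPM at 24 h with antibody, 1850 to 2468 CPM at 72 h of LPS and 1267 to 1920 CPM at 72 h with antibody. The 8 dendritic markers summed, in the same order of groups, to 842 to 1224, 402 to 610, 470 to 717, 1037 to 1353 and 549 to 571 CPM. Both lists hold Flt3, and Irf8 of the dendritic list is also expressed by progenitors. Cd209a of that list (mean 3.22 CPM with PBS) was at 0 in all 3 LPS 24 h libraries. Other dendritic markers were higher at 24 h of LPS than with PBS: Bst2 (153 to 397 against 60.9 to 132 CPM) and the mean of Zbtb46 (7.77 against 7.02 CPM). Of the HSPC markers, Ly6a was higher there too (108 to 222 against 32.6 to 85.2 CPM). The means of Gata2 (101 against 67.5 CPM) and Cd48 (136 against 131 CPM) were also higher.

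The 10 stromal and endothelial markers summed to 201 to 265, 87.1 to 136, 119 to 167, 251 to 288 and 152 to 184 CPM in that order of groups. PBS overlapped LPS at 72 h, and the other 3 groups lay below both, as for Crip1. Most of that sum was Pecam1, which blood progenitors also express. Pdgfrb of the list had group means of 55.4, 26.4, 32.1, 54.3 and 38.6 CPM in that order of groups. Those of Emcn were 12.8, 2.05, 3.00, 11.15 and 4.56 CPM. Pdgfra was at 0 in every library but 1 and Col1a1 was at or under 0.592 CPM. The 8 B-lymphoid markers summed to 126 to 166, 40.4 to 73.0, 45.9 to 98.1, 53.4 to 169.8 and 37.7 to 104 CPM. Sums of 6 plasma cell markers were 449 to 1419, 182 to 302, 227 to 271, 276 to 453 and 153 to 515 CPM. The 14 monocyte-macrophage markers summed to 637 to 2913, 409 to 785, 732 to 876, 683 to 1334 and 515 to 883 CPM. These sums overlapped widely between groups, but single genes of the list did not. C1qa was at 22.0 to 265 CPM with PBS and at most 3.71 CPM at 24 h and 3.13 CPM at 72 h of LPS. Vcam1 was at 64.6 to 681, at most 16.5 and at most 7.68 CPM there, and Axl and Mertk were also lower without overlap. Ly6c2, Csf1r and Ccr2 had higher means at 72 h of LPS (440, 228 and 223 CPM) than with PBS (303, 154 and 82.7 CPM). The 12 T and NK markers summed to 169 to 324, 129 to 276, 109.5 to 234, 213 to 290.2 and 94.4 to 218 CPM, and the T-cell gene Cd3e among them was at or under 3.2 CPM in every library. The 10 neutrophil markers summed to 2355 to 13898, 7928 to 15912, 4084 to 10879, 5932 to 12091 and 3271 to 11075 CPM. Mpo made up most of these sums, with group means of 5409, 7573, 5581, 7437 and 5887 CPM. Of that list, Ly6g, a gene of mature neutrophils, was at or near 0 in all groups, at most 4.8 CPM in 1 PBS library. Others of the list were higher: with PBS, S100a9 reached 675, Ngp 207 and Ltf 139 CPM. The part of these cells in the levels of the 10 genes was not tested.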

How the data were processed

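The authors deposited 1 table of raw read counts per gene symbol, with 35321 genes and 17 columns, each matched to a sample by its library name (0 columns were unmatched). The submitters' processing notes name HISAT2 2.2.0, Subread, featureCounts 2.1.1, R 4.3.2, DESeq2 and the build GRCm38. Their settings, the annotation and the use of strand are not given in the sources used here, so reads shared by overlapping genes or near-identical copies (Lgals1 has 2 annotated pseudogenes named after it) may be split in ways that cannot be seen.

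Groups come from the sample titles. The 10 genes, the gene lists and the marker lists were chosen with earlier results of these data known. Genes named outside the 10 are the 5 most like Ahnak, at most 4 per family list and comparison by adjusted p, and Gm42674 and the marker genes of other cell types, picked after their values were seen. Counts were fitted with edgeR 4.0.16 in R 4.3.3: filterByExpr (minimum count 10, minimum total 15) kept 14920 genes, libraries were scaled by TMM, and 1 quasi-likelihood fit with a mean per group over all 17 libraries gave 9 comparisons. Each SE was taken as the size of the change over the root of its F statistic, and intervals use 12 residual degrees of freedom. Log2 CPM used a prior count of 2. The script was tested on simulated data. Alternatives were DESeq2 1.42.0, voom in limma 3.58.1, other scaling factors, no filter, only the groups compared, the replicate block and leaving out each library.

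Same-numbered libraries 1, 2 and 3 deviated together between PBS and LPS 24 h (correlations across genes 0.202, 0.201 and 0.163) and between PBS and antibody 72 h (0.128, 0.206 and 0.116). This hint comes from the data and not from the labels, and it did not hold for every pair in the other comparisons. Between antibody 24 h and 72 h the correlations were 0.723, -0.022 and 0.697.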

Additional observations from a re-analysis of the deposited data

Results flagged for a closer look

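PBS library 2 stood apart from the other 4 PBS libraries for 3 of the 10 genes, by a gap to its nearest neighbour that filled most of the group's range. It held 65.5 CPM of Gsn, 55.8 CPM of S100a4 and 49.3 CPM of S100a6, and the gap was 0.813, 0.874 and 0.922 of the range, above the critical value for 5 samples. Only the PBS group was large enough for this check, and chance gives such a gap in about 5% of groups. In the same library the summed monocyte-macrophage, plasma cell, dendritic and B-lymphoid markers were also the highest of the PBS group. Results against PBS that lose their call without this library are the S100a6 loss at 24 h of LPS and the Crip1 difference in both antibody groups.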

How the results depend on the processing

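Counts of called genes are over the 8 linked genes. For voom and DESeq2 the share of all tested genes called is not given here. For LPS 24 h against PBS (2) the count was 1 with no filter, 1 with only the groups compared, 3 with upper-quartile factors or DESeq2 (S100a4 added), 2 with voom (Crip1 and S100a10, not S100a6), 0 in the unblocked fit of libraries numbered 1 to 3, and 0 to 2 when 1 library was left out. For LPS 72 h against PBS (0) it was 5 with voom and 1 with the replicate block. For antibody 24 h against PBS (1) it was 0 with the replicate block, 0 in the unblocked fit of libraries numbered 1 to 3, and 0 to 1 with 1 library left out. For antibody 72 h against PBS (1) it was 0 with no filter, 0 with voom, 2 with only the groups compared, 0 with the replicate block, 0 in the fit of libraries numbered 1 to 3 and 0 to 1 with 1 library left out. For the antibody difference at 72 h (2) it was 7 with voom, 4 with only the groups compared, 4 in the fit of libraries numbered 1 to 3 and 2 with each library left out. For LPS 72 h against 24 h (4) it was 7 with voom and 2 to 4 with 1 library left out. For the change of the antibody difference over time (0) it was 2 with upper-quartile factors, 4 with DESeq2, 3 with voom, 2 with only the groups compared, 2 in the fit of libraries numbered 1 to 3 and 0 to 3 with 1 library left out. The cause was not tested. The fit of libraries numbered 1 to 3 was chosen after seeing the data.

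The change from 24 h to 72 h with antibody had no stable sign for Gsn (-0.16, 0.045 with voom, -0.29 to 0.022 with 1 library left out) or Ahnak (0.28, -0.11 to 0.50 with 1 library left out). Upper-quartile factors moved the median change of all genes at 24 h of LPS from -0.03 to -0.16 and turned Anxa1 there to -0.03. The replicate block left the antibody difference at 72 h called for Crip1 (-1.53, edgeR adjusted p = 0.0435) and S100a10 (-1.25, edgeR adjusted p = 0.0443), while calls over all genes were 2256 with all libraries, 1123 with only these libraries and no block and 344 with the block. For antibody 24 h against PBS these were 3605, 1393 and 0. Groups of 3 libraries limit what these tests can detect.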
